A study of Mus musculus with 10 samples.

Results

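The genes described are the 41 chaperone genes of a fixed list, picked by gene symbol: the HSP70 and HSP110 family, the HSP90 pair, J-proteins, the 8 subunits of the CCT chaperonin, mitochondrial chaperones, cochaperones, a small heat shock protein and the heat shock factors. All 41 were found among the 52096 genes of the deposited table, and 38 of them were among the 13041 genes tested, which reached 1 FPKM in 5 or more of the 10 libraries. FPKM counts sequenced fragments per kilobase of transcript, relative to all mapped fragments of the library. RNA was sequenced from mouse bone marrow hematopoietic stem cells sorted as CD48-CD150+LSK, where LSK denotes marrow cells without lineage markers that carry Sca-1 and Kit. The 5 HET libraries came from mice labelled Nup214fl/+ with Tie2-Cre, and the 5 FL libraries from mice labelled Nup214fl/+ without it. Both groups thus carry 1 floxed allele of Nup214, a nuclear pore gene, and HET mice also carry Cre recombinase under the Tie2 promoter, which is active in blood and endothelial cells. No group with Cre and no floxed allele was analysed here, so an effect of Cre and an effect of the deletion cannot be told apart. Age and sex are not given in the sources used here. Nor do they say if the libraries come from different mice, so the p-values below rest on library-to-library spread, which may be technical.

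Chaperones hold unfolded proteins and release them in a state that can fold. HSP70 proteins bind short hydrophobic stretches in a cycle driven by ATP, which J-proteins start and nucleotide exchange factors such as BAG1 and HSP110 end, and the adaptor STIP1 passes clients on to HSP90. The CCT chaperonin, a double ring of different subunits, encloses actin, tubulin and other proteins while they fold, and HSF1 raises many of these genes when unfolded proteins build up. In hematopoietic stem cells, low protein synthesis and strict protein quality control are known to go with self-renewal.

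The targeted gene was measured first. Nup214 (ENSMUSG00000001855, chromosome 2, 31974436 to 32053975, plus strand, GRCm38) had 31.2, 9.74, 17.4, 16.3 and 9.13 FPKM in HET libraries 1 to 5, against 65.8, 55.3, 52.2, 43.9 and 30.0 FPKM in FL libraries 1 to 5. It was lower in HET (exact two-sided permutation p = 0.0159, log2 fold change -1.59), with a value of -2.003 without FL 5 and HET 1, and HET 1 and FL 5 were the libraries whose order crossed between the groups. The same libraries stood apart across the transcriptome. Group means were taken without FL 5, HET 1 and the library compared. HET 1 was nearer to the FL mean than to the HET mean for 83.9% of the 13041 tested genes. FL 5 was nearer to the HET mean than to the FL mean for 80.0%. The other 8 libraries were nearer the other label for 13.9% to 40.0%, a contrast that leaving FL 5 and HET 1 out of the means can sharpen. Among the 38 tested chaperone genes, the library labelled HET 1 was nearer the other label for 34 and the library labelled FL 5 for 31. The other 8 libraries were so for 4 to 22 of these genes, with 22 in HET 5 and 19 in FL 4. Whether these 2 libraries carry the right label could not be settled from the files, and this touches every fold change below. Results are therefore given over all 10 libraries and over the 8 libraries without FL 5 and HET 1, a choice made with earlier results of these data known. Both libraries were left out for values that lay near the other group, chaperone genes included. The fit over 8 libraries thus tests the same separation that picked them, its p-values are too small and its calls too many, and "passed" in it is a description and not independent support. The same holds for tests that leave out FL 5 alone or HET 1 alone. It also holds for sample quality weights, which were computed from these same values and groups and counted both libraries least. Values summed to 896054 to 1066190 FPKM per library, and 1 fragment was worth 0.045 to 0.105 FPKM for a transcript of 1 kilobase.

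Marker genes of other cell types differed in level beside the comparison. Of 9 macrophage markers all 9 had a negative fold change in HET, as did 77.3% of all genes, and 8 of the 9 an unadjusted limma p under 0.05, against 8.95% of all genes lower in HET. They had summed levels of 97.2 to 436 FPKM in HET (436 in HET 1) and 234 to 428 FPKM in FL. Of 12 neutrophil markers all 12 had a positive fold change, against 22.7% of all genes. The 12 summed to 13489 to 22856 FPKM in HET and 12199 to 17945 in FL. B and plasma cell markers summed to 8149 to 102121 FPKM in HET and 2697 to 11000.1 in FL, with 6 of 7 tested markers above 0. All 9 erythroid markers had a negative fold change, with sums of 4415 FPKM in HET 2, 4277 in HET 4 and 1551 to 1739 in the other HET libraries, against 2432 to 3337 FPKM in FL. All 6 megakaryocyte markers had one too, with sums of 985 to 1798 FPKM in HET and 1822 to 2415 in FL, while T and NK cell markers, with 2 of 4 tested above 0, summed to 375 to 728 FPKM in HET and 406 to 724 in FL. The HSC and progenitor markers summed to 651 to 1056 FPKM in HET and 683 to 773 in FL. Cd34 and Kit were the largest parts, so the sum does not measure HSC content. Of the 11 markers 6 had a fold change above 0, against 22.7% of all genes, and none passed. Without FL 5 and HET 1, 2 of the 11 lay above 0, against 17.5%. There Cd34 passed as higher, against 3.44% of all genes, and Hlf and Mecom as lower, against 42.2%. Over 10 libraries Cd34 averaged 411 FPKM in HET and 327 in FL, Hlf 13.2 and 17.7, and Mecom 6.19 and 7.67. Slamf1, which encodes CD150, averaged 3.97 ± 1.02 FPKM in HET and 3.81 ± 1.06 in FL (SD, n = 5 each), beside 9573 ± 1937 FPKM in HET and 8249.7 ± 1147 in FL of the granule gene Mpo. No marker of any list was listed at 0 in all libraries, and the part of other cells in the values below was not tested. In such bulk samples fewer cells of a type and less RNA per cell cannot be told apart.

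Promoter sequences were matched to ask which of the genes carry the element that heat shock factors bind, an array of inverted GAA units. RefSeq windows on GRCm38.p6, from 250 bases before to 50 after the start, were found for 34 of the 41 genes, and Hspa8, Hsp90aa1, Hsp90ab1, Cct4, St13, Hsf1 and Hspa9 were not matched. A run of 3 units, GAANNTTCNNGAA read on both strands, occurred in a window of 5 of these 34 genes, 14.7%, against 0.662% of the 27025 gene symbols with a window. The 5 were Hspd1, Hspe1, Chordc1, Hsph1 and Dnajb6. Shown in capitals are the matches in Hspe1, whose window overlaps the one of its divergent neighbour Hspd1 and holds the same match, and in Chordc1, Hsph1 and Dnajb6, which were chosen after the match was seen. Bag1, the member with the lowest fold change, has no match in its window and is shown for contrast. The windows are chr1:55087898-55088197 (plus strand) for Hspe1, chr9:18292017-18292316 (plus) for Chordc1, chr5:149636287-149636586 (minus) for Hsph1, chr5:29735648-29735947 (plus) for Dnajb6 and chr4:40948245-40948544 (minus) for Bag1.
Hspe1: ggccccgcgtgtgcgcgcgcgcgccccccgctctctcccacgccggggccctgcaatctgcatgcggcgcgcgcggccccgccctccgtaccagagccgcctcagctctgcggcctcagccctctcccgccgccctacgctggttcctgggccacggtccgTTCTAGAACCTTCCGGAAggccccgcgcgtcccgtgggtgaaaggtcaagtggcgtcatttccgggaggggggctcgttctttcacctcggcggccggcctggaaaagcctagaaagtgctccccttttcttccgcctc
Chordc1: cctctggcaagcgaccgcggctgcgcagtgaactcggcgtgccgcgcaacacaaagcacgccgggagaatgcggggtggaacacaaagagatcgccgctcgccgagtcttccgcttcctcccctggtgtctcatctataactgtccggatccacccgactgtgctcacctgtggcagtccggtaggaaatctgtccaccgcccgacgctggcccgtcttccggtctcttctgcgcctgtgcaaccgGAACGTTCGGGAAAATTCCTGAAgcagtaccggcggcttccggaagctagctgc
Hsph1: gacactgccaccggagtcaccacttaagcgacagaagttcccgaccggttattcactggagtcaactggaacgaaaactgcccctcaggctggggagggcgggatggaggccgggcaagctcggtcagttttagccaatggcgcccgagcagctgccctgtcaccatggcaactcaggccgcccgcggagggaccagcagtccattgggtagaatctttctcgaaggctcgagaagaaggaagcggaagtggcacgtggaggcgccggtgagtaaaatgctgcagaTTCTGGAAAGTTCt
Dnajb6: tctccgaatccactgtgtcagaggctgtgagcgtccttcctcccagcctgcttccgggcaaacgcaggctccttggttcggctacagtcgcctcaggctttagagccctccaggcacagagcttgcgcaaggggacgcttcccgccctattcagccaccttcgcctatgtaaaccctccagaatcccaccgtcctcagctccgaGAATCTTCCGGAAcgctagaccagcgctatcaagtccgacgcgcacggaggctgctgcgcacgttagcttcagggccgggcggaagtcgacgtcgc
Bag1: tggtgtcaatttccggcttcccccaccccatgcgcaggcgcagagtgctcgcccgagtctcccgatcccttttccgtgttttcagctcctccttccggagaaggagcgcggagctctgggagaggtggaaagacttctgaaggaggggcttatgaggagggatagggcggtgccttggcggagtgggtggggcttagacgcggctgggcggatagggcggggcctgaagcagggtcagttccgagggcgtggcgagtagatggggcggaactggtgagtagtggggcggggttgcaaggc
The Hspe1 match begins 89 bases before the start, that of Dnajb6 46 bases before and that of Chordc1 4 bases before, so that it spans the start. The Hsph1 match lies within the 50 bases after it. A match describes these letters and is not a measured binding site. Windows without one can still hold a pair of inverted units, as those of Hspa1a and Hspa1b do. No match is thus not absence of the element. None of the 5 genes passed the test over 10 libraries, and no other gene of the 13041 did. Without FL 5 and HET 1, Dnajb6 was the 1 of the 5 that passed, lower in HET, against 45.7% of all genes, 42.2% lower. Its fold change in that fit was -0.05 relative to the median of all genes.

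Over all 10 libraries no chaperone gene passed. With limma and Benjamini-Hochberg adjustment at 0.05, 0 of the 38 tested genes were called, against 0.0% of all 13041 genes (0 genes). At an unadjusted p under 0.05 there was 1 chaperone gene, Bag1, lower in HET, while 10.4% of all genes reached it, 1.44% higher and 8.95% lower. The fitted fold change was above 0 for 18 of 38 chaperone genes, against 22.7% of all genes. Their median log2 fold change was -0.01, against -0.17 for all genes, so the values of most genes lay lower in HET on this scale. Scaling the columns by median ratios moved the median of all genes by more than 0.1, to 0.01. Under it 32 of 38 chaperone genes had a fold change above 0, against 51.0% of all genes, and their median was 0.18. Fold changes that passed over 8 libraries are therefore also given relative to the median of all genes in that fit.

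Without FL 5 and HET 1, 14 of the 38 chaperone genes passed, 7 higher and 7 lower in HET, against 45.7% of all genes, 3.44% higher and 42.2% lower. The higher ones were Hspa8, Hsp90aa1, Dnaja2, Dnajc7, Cct6a, Cct8 and Fkbp4, and the lower ones Bag1, St13, Ptges3, Dnajb6, Hspa4l, Bag3 and Hsf2. In these 8 libraries the median of the 38 genes was 0.02 and that of all genes -0.33. The groups did not overlap for 10 of the 38 genes, 4 higher and 6 lower in HET, against 41.9% of all genes, 2.99% higher and 38.9% lower. The fold change was above 0 for 20 of the 38 genes, against 17.5% of all genes. With sample quality weights on all 10 libraries, which counted HET 1 and FL 5 least, 20 of the 38 genes passed, 13 higher and 7 lower, against 52.7% of all genes, 4.87% higher and 47.8% lower. Over 10 libraries the groups overlapped for all 38 genes, where 0.506% of all genes had no overlap.

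**Figure D1:**
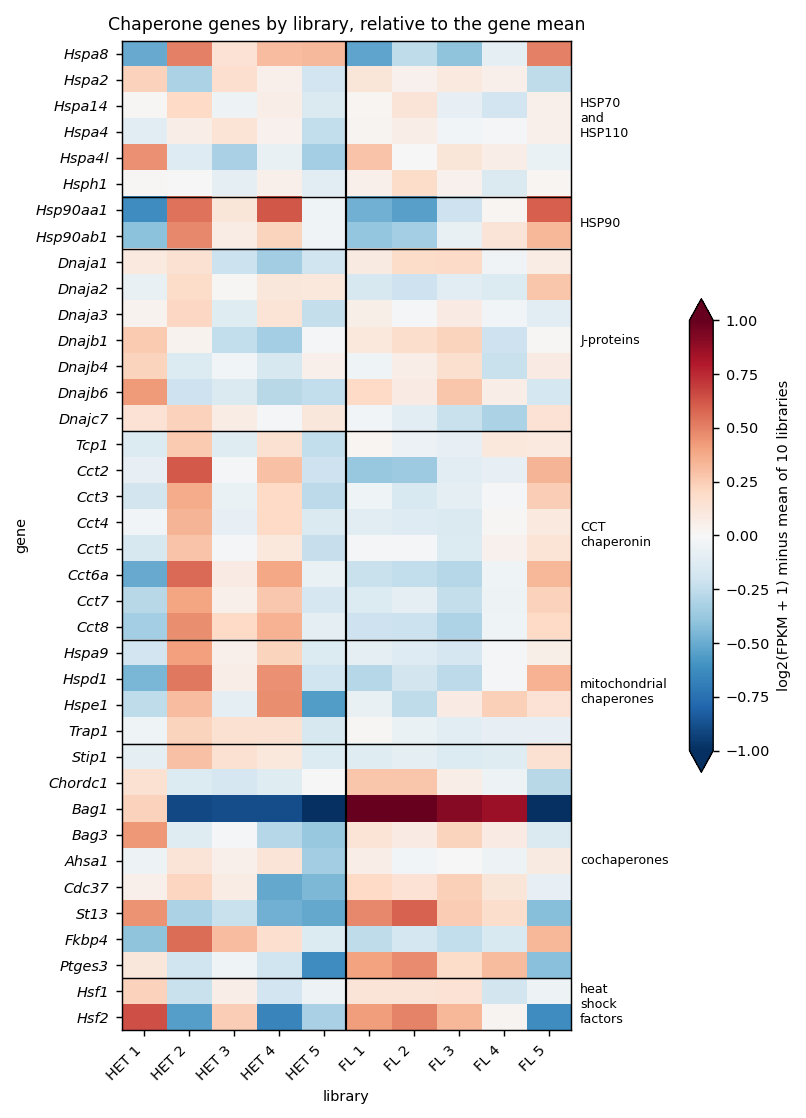
Level of each tested chaperone gene in each library as log2(FPKM + 1) minus the gene's mean over the 10 libraries (colour), with HET libraries left of FL libraries and genes grouped by role. HET 1 and FL 5 differ in many rows from the libraries of their own label, as in Hspa8 (1939.6 FPKM in HET 1 and 3899.6 FPKM in FL 5).

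**Figure D2:**
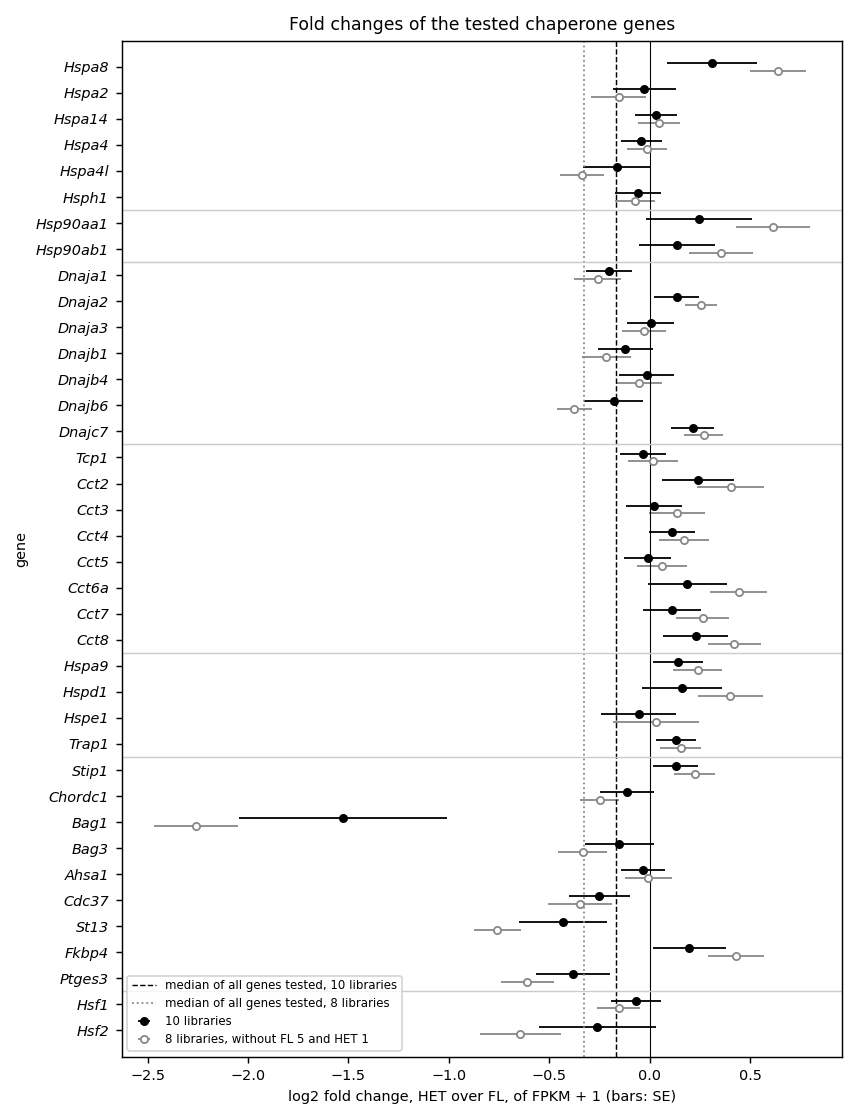
Fitted log2 fold change of FPKM + 1, HET over FL, with its SE, for the 38 tested chaperone genes over 10 libraries (filled) and over the 8 libraries without FL 5 and HET 1 (open), beside the medians of all tested genes, -0.17 and -0.33. Bag1 has the lowest value in both fits, -1.53 and -2.26.

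Among the HSP70 and HSP110 genes, the constitutive Hspa8 was the highest of all 41 genes by mean FPKM while the stress-inducible Hspa1a and Hspa1b were barely detected. Hspa8 (ENSMUSG00000015656, chromosome 9, 40800984 to 40810087), which encodes the HSC70 protein that folds new proteins and uncoats clathrin vesicles, had 1939.6, 3905, 3053, 3405 and 3458 FPKM in HET libraries 1 to 5, against 1916, 2309, 2081, 2592 and 3899.6 FPKM in FL libraries 1 to 5. HET 2 to 5 all lay above FL 1 to 4, with HET 1 among the FL values and FL 5 among the HET values. This gave a log2 fold change of 0.31 (SE 0.23), which is 0.48 above the median of all genes and did not pass (limma adjusted p = 0.533). Without FL 5 and HET 1 it was 0.64 (SE 0.14), or 0.96 relative to all genes and a 1.55-fold ratio of mean FPKM, and passed (limma adjusted p = 0.00447). The stress-inducible Hspa1a had 0.80, 0.71, 0.47, 0.18 and 0.33 FPKM in HET libraries, against 0.37, 1.03, 0.71, 0.39 and 0.42 FPKM in FL libraries. Its copy Hspa1b had at most 0.06 FPKM in HET and 0.07 FPKM in FL. Both lay below the level at which genes were tested, and 58.8% of the 50-base windows of the Hspa1a transcript also occur in Hspa1b, so the split of reads between them is uncertain.

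The other members of the family had small fold changes. Hspa2, best known from the testis, averaged 3.78 ± 0.761 FPKM in HET and 3.84 ± 0.483 in FL, and Hspa14, a ribosome-associated HSP70, 50.6 ± 4.60 in HET and 49.5 ± 4.22 in FL (SD, n = 5 each, as for all means below). Hspa4, an HSP110 exchange factor, averaged 38.2 ± 4.11 FPKM in HET and 39.2 ± 1.08 in FL, and Hsph1, the stress-inducible HSP110, 15.3 ± 0.818 in HET and 16.0 ± 1.38 in FL. These 4 passed in neither fit. Hspa4l, the third HSP110 gene, averaged 10.9 ± 2.96 FPKM in HET and 12.1 ± 1.25 in FL. It passed without FL 5 and HET 1, at -0.34 (SE 0.11, limma adjusted p = 0.0284), which is -0.01 relative to the median of all genes in that fit.

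Both HSP90 genes, whose proteins mature kinases and steroid receptors, were among the most abundant genes of the set. Hsp90aa1 (ENSMUSG00000021270, chromosome 12, 110690605 to 110702728, minus strand), the more inducible form, had 913, 2049, 1534, 2159.9 and 1362 FPKM in HET libraries 1 to 5, against 1008, 967, 1218, 1426 and 2124 FPKM in FL libraries 1 to 5. The groups overlapped, also without FL 5 and HET 1, because HET 5 lay below FL 4. The log2 fold change was 0.25 (SE 0.27, limma adjusted p = 0.647) over 10 libraries and 0.61 (SE 0.18, limma adjusted p = 0.0209) without FL 5 and HET 1, or 0.94 relative to all genes. Hsp90ab1 (chromosome 17, 45567775 to 45573271, minus strand), the constitutive form, had 1584, 2948, 2224, 2468 and 2059.5 FPKM in HET libraries, against 1616, 1671, 2004, 2302 and 2654 FPKM in FL libraries. It passed in neither fit, with 0.14 (SE 0.19, limma adjusted p = 0.717) and 0.35 (SE 0.16, limma adjusted p = 0.0915). No 50-base window is shared between the transcripts of the pair. Hspa8, Hsp90aa1 and Hsp90ab1 together made up 53.1% to 65.1% of the summed FPKM of the 41 genes in HET libraries and 51.8% to 64.8% in FL libraries.

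J-proteins hand clients to HSP70 and start its ATP cycle, and the 7 tested genes had fold changes in both directions. Dnajc7, whose product binds both HSP70 and HSP90, had 82.5, 87.4, 78.2, 73.4 and 80.5 FPKM in HET libraries 1 to 5, against 73.0, 68.6, 63.8, 59.6 and 82.6 FPKM in FL libraries 1 to 5. All 5 HET libraries lay above the FL median, and FL 5 was the 1 FL library among the HET values. Its fold change of 0.21 (SE 0.11) had the smallest p of those above 0 and did not pass (limma adjusted p = 0.472), while without FL 5 and HET 1 it was 0.27 (SE 0.10, limma adjusted p = 0.0420), or 0.59 relative to all genes. The gene span of Dnajc7, introns included, shares 8912 bases with that of Cnp on the other strand, and Cnp averaged 53.1 FPKM over the 10 libraries. The labels name no strand marking, so reads of the pair cannot be told apart where their exons overlap. How much of the shared span is exon was not measured. The same limit holds for the gene spans of Dnaja3, which shares 39789 bases with Coro7, of Dnaja1 (608 bases with Smu1) and of Tcp1 (645 bases with Mrpl18). Dnaja1, the J-protein gene with the highest mean, had 102, 106, 81.9, 74.8 and 83.1 FPKM in HET libraries, against 102, 108, 109, 93.2 and 100.2 FPKM in FL libraries. HET 3 to 5 lay below all FL libraries and HET 1 and HET 2 among them, and it passed in neither fit (limma adjusted p = 0.486 and 0.0918). Dnaja2 averaged 66.8 ± 4.58 FPKM in HET and 61.1 ± 9.13 in FL and was higher without FL 5 and HET 1 (0.25, SE 0.08, limma adjusted p = 0.0243, or 0.58 relative to all genes). Dnajb6, a suppressor of protein aggregation, averaged 58.8 ± 13.6 FPKM in HET and 66.0 ± 7.69 in FL. It was lower without FL 5 and HET 1 (-0.37, SE 0.08, limma adjusted p = 0.00566), which is -0.05 relative to all genes. Dnajb1, the main cytosolic partner of inducible HSP70, averaged 45.05 ± 7.64 FPKM in HET and 48.8 ± 5.68 in FL, Dnajb4 8.37 ± 1.04 in HET and 8.46 ± 0.942 in FL, and the mitochondrial Dnaja3 27.7 ± 3.56 in HET and 27.5 ± 1.52 in FL. These 3 passed in neither fit.

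Of the 8 CCT genes, Cct5 had the highest and Cct2 the lowest FPKM in all 10 libraries. The assembled ring holds each subunit at the same number, but RNA levels do not give protein amounts. The ratio of Cct5 to Cct2 was 2.97, 2.49, 3.12, 2.75 and 3.09 in HET libraries 1 to 5, against 4.06, 4.01, 3.08, 3.42 and 2.73 in FL libraries 1 to 5. Of the summed FPKM of the 8 genes, Cct5 made up 18.8 ± 1.001% in HET and 20.2 ± 1.02% in FL, Cct3 15.5 ± 0.531% in HET and 16.3 ± 0.536% in FL, and Cct7 14.2 ± 0.381% in HET and 14.0 ± 0.433% in FL. Cct8 made up 14.0 ± 1.08% in HET and 12.8 ± 0.444% in FL, Cct6a 12.1 ± 1.46% in HET and 11.2 ± 0.830% in FL, and Cct4 9.92 ± 0.808% in HET and 9.77 ± 0.372% in FL. Tcp1 made up 8.88 ± 0.572% in HET and 9.71 ± 0.625% in FL, and Cct2 6.55 ± 0.476% in HET and 5.94 ± 0.728% in FL (SD, n = 5 each). The neighbours Cct7 and Cct8 in HET, and Cct4 and Tcp1 in FL, differed by less than their SDs.

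**Figure D3:**
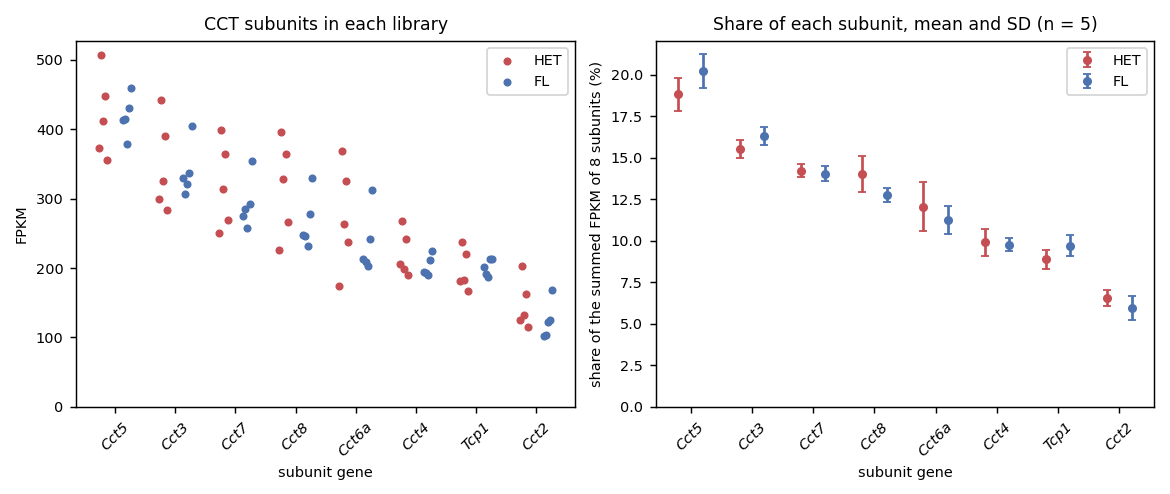
FPKM of each CCT gene in each library (left) and its share of the summed FPKM of the 8 genes, mean and SD over 5 libraries (right), HET left of FL, ordered by mean FPKM. Cct5 stands highest and Cct2 lowest in both groups, at 18.8% and 6.55% in HET and 20.2% and 5.94% in FL.

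The summed CCT level was 1837, 2822, 2155, 2519 and 1884 FPKM in HET libraries 1 to 5, against 1977, 1949, 1892, 2132 and 2466 FPKM in FL libraries 1 to 5. HET 2, HET 4 and FL 5 were high, and HET 1 and HET 5 lay below the lowest FL library, so the groups overlapped. HET 2 and HET 4 were also the libraries with the highest erythroid marker sums, whose part in the CCT level was not tested. FL 5 had an erythroid sum of 2504 FPKM, among the other FL libraries. Of the 8 genes 6 had a fold change above 0, with a median of 0.11 (0.31, and 8 of 8 above 0, under median-ratio scaling), and none passed over 10 libraries. Cct8 (ENSMUSG00000025613), which had the smallest p of the 8, had 226, 396, 328, 365 and 267 FPKM in HET libraries, against 247, 247, 231, 278 and 329 FPKM in FL libraries. HET 2 to 4 lay above FL 1 to 4, and HET 5 below FL 4. Its fold change was 0.23 (SE 0.16, limma adjusted p = 0.529). Cct5 had 373, 507, 412, 448 and 355 FPKM in HET libraries, against 414, 415, 379, 431 and 459.8 FPKM in FL libraries, with a fold change of -0.01 (SE 0.12, limma adjusted p = 0.968). The groups overlapped throughout.

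Without FL 5 and HET 1 all 8 CCT genes had a fold change above 0 and a median of 0.22, and 2 of the 8 passed, both higher, against 3.44% of all genes. With quality weights on 10 libraries 4 of the 8 passed, all higher, against 4.87% of all genes. The 2 without FL 5 and HET 1 were Cct8 at 0.42 (SE 0.13, limma adjusted p = 0.0256), or 0.75 relative to all genes, and Cct6a at 0.44 (SE 0.14, limma adjusted p = 0.0288), or 0.77. Cct6a averaged 274 ± 75.8 FPKM in HET and 236 ± 45.2 in FL over 10 libraries. Cct2 averaged 148 ± 35.9 FPKM in HET and 125 ± 26.9 in FL, Cct3 348 ± 66.3 in HET and 339.6 ± 37.9 in FL, and Cct4 221 ± 32.5 in HET and 203 ± 15.1 in FL. Cct7 averaged 319.5 ± 62.9 FPKM in HET and 293 ± 37.0 in FL, and Tcp1, the alpha subunit, 198 ± 29.9 in HET and 201 ± 11.98 in FL. In the 8 libraries these 5 and Cct5 had limma adjusted p of 0.0695 for Cct2 to 0.925 for Tcp1.

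Prefoldin holds unfolded actin and tubulin and delivers them to CCT. Of the 12 genes of the prefoldin complex and CCT helpers, all 12 had a fold change below 0, against 77.3% of all genes. The median of the 12 was -0.32 (-0.12 under median-ratio scaling, with 9 of 12 below 0). At an unadjusted limma p under 0.05 there were 4, against 8.95% of all genes lower in HET, and 0 passed. Without FL 5 and HET 1, 10 of the 12 passed, all lower, against 42.2% of all genes. Uxt, a prefoldin-like alpha subunit, averaged 25.3 ± 5.98 FPKM in HET and 36.2 ± 3.63 in FL, and Pfdn2, a prefoldin subunit, 14.1 ± 2.42 in HET and 18.7 ± 2.58 in FL. Their fold changes were -0.52 and -0.39 (limma adjusted p = 0.472 for both). Of 11 tested actin and tubulin genes, whose products are the main clients, 6 had a fold change above 0 and 5 below, with a median of 0.02 (0.23, and 9 of 11 above 0, under median-ratio scaling). Of them 2 passed without FL 5 and HET 1, both higher, against 3.44% of all genes. Beta-actin, Actb, averaged 8138 ± 351 FPKM in HET and 9519 ± 1331 in FL, and Tubb6 6.72 ± 0.625 in HET and 8.01 ± 1.56 in FL. The 5 tubulin folding cofactors all lay below 0, with a median of -0.16 (0.04, and 5 of 5 above 0, under median-ratio scaling), and 3 passed without FL 5 and HET 1, all lower, against 42.2% of all genes. Among them Tbcb averaged 53.9 ± 6.82 FPKM in HET and 60.0 ± 6.84 in FL and Tbca 64.4 ± 10.03 in HET and 69.0 ± 3.33 in FL.

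Mitochondrial chaperones fold imported proteins, and none of the 4 genes passed in either fit, against 0.0% of all genes over 10 libraries and 45.7% over 8. Hspd1 encodes the HSP60 barrel and Hspe1 its HSP10 lid, and the genes share a promoter region on chromosome 1 and 112 annotated bases on opposite strands. Hspd1 had 188, 372, 271, 356 and 225 FPKM in HET libraries 1 to 5, against 212, 227, 215, 256 and 329 FPKM in FL libraries 1 to 5. Hspe1 had 162, 239.7, 180.0, 267 and 130.3 FPKM in HET libraries, against 183, 162, 205, 227 and 213 FPKM in FL libraries. HET 2 and HET 4 were the highest libraries for both genes, as for the erythroid markers, whose part in these levels was not tested. FL 5, the highest FL library for Hspd1, had an erythroid sum of 2504 FPKM. The groups overlapped for both genes. Their fold changes were 0.16 (SE 0.20, limma adjusted p = 0.688) for Hspd1 and -0.05 (SE 0.19, limma adjusted p = 0.887) for Hspe1. Trap1, the mitochondrial HSP90, had 87.9, 106, 100.5, 101 and 80.8 FPKM in HET libraries, against 91.1, 86.2, 84.0, 85.5 and 85.3 FPKM in FL libraries. HET 2 to 4 lay above all FL libraries and HET 5 below them, with a fold change of 0.13 (SE 0.10, limma adjusted p = 0.541). Hspa9, the mitochondrial HSP70, averaged 181 ± 31.9 FPKM in HET and 162 ± 10.4 in FL. In the 8 libraries the fold changes were 0.40 for Hspd1, 0.03 for Hspe1, 0.15 for Trap1 and 0.24 for Hspa9 (limma adjusted p = 0.0625 to 0.912). With quality weights, which counted HET 1 and FL 5 least, 2 of the 4 passed, both higher, against 4.87% of all genes. These were Hspd1 at 0.49 (limma adjusted p = 0.0112) and Hspa9 at 0.31 (limma adjusted p = 0.0216). The weights came from these same values, so this is no independent support.

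Cochaperones held the largest difference of the set. Bag1 (ENSMUSG00000028416, chromosome 4, 40936398 to 40948294, minus strand) encodes a nucleotide exchange factor of HSP70 that also binds the proteasome and BCL2. It had 32.9, 14.4, 14.6, 14.6 and 10.2 FPKM in HET libraries 1 to 5, against 79.0, 95.5, 53.3, 51.3 and 11.9 FPKM in FL libraries 1 to 5. Every HET library was under the FL median, and the groups overlapped through FL 5 alone, which lay among the HET values. This gave a log2 fold change of -1.53 (SE 0.52) and of -1.36 relative to all genes, with an unadjusted limma p of 0.0142 and an adjusted p of 0.472. Without FL 5 and HET 1 the HET mean was 0.193 of the FL mean, at -2.26 (SE 0.21, limma adjusted p = 6.68e-05), or -1.93 relative to all genes. Over all alternatives its limma adjusted p ran from 6.68e-05 to 0.862, and its fold change stayed below 0 in each. Bag1 was the 1 chaperone gene called without FL 5 alone, where 3.14% of all genes were called.

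St13 and Ptges3 followed Bag1 in size among the lower genes over 10 libraries, and St13 and Hsf2 without FL 5 and HET 1. Ptges3, whose product p23 closes the HSP90 cycle, had 182, 147, 164, 147 and 109.6 FPKM in HET libraries 1 to 5, against 223, 236, 192, 210.4 and 126 FPKM in FL libraries 1 to 5. Again every HET library was under the FL median and FL 5 was among the HET values. Its fold change was -0.38 (SE 0.18, limma adjusted p = 0.472), and -0.61 (SE 0.13, limma adjusted p = 0.00461) without FL 5 and HET 1, or -0.28 relative to all genes. St13, the HSP70-interacting protein HIP, averaged 68.3 ± 21.4 FPKM in HET and 92.2 ± 22.9 in FL, with -0.43 (SE 0.22, limma adjusted p = 0.472) over 10 libraries and -0.76 (SE 0.12, limma adjusted p = 0.000694) without FL 5 and HET 1, or -0.43 relative to all genes. HET 1, at 106 FPKM, lay among the FL libraries and FL 5, at 57.2 FPKM, among the HET libraries.

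**Figure D4:**
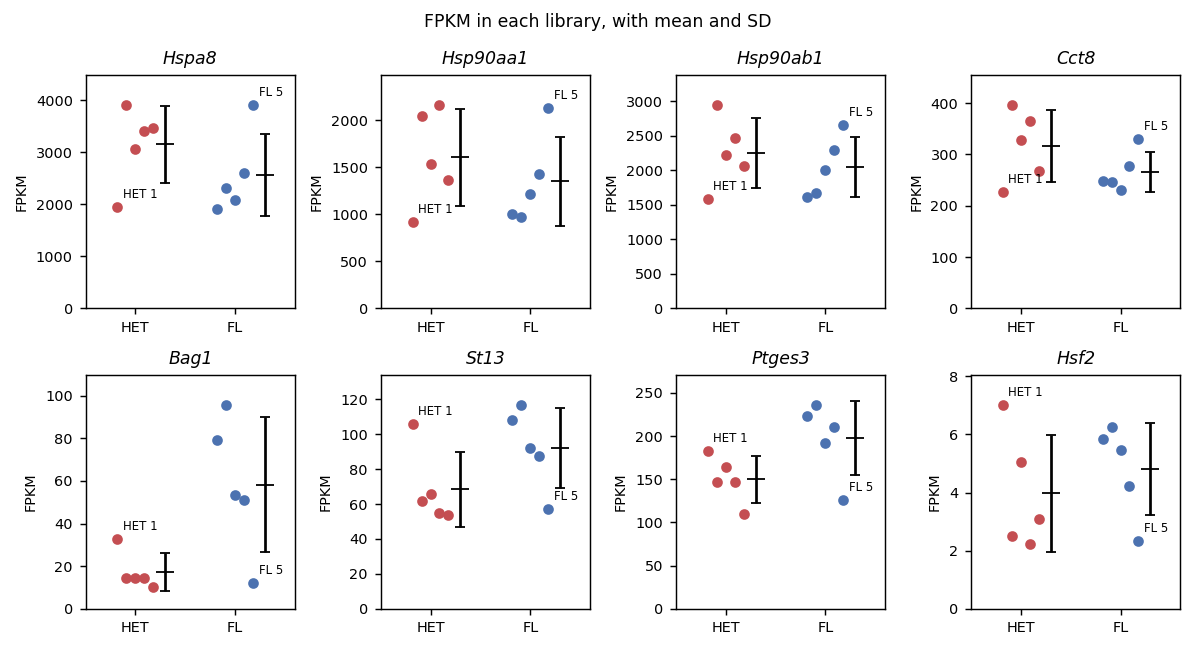
FPKM of 8 chaperone genes in each library, with mean and SD over 5 libraries, HET left of FL, HET 1 and FL 5 marked by name. Bag1 has 10.2 to 32.9 FPKM in HET and 51.3 to 95.5 FPKM in FL 1 to 4, with FL 5 at 11.9 FPKM.

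Fkbp4, an HSP90-bound immunophilin of steroid receptors and the cochaperone gene with the highest mean, had 166, 323, 272, 247 and 200.02 FPKM in HET libraries 1 to 5, against 184, 195, 186, 198 and 277 FPKM in FL libraries 1 to 5. HET 2 to 5 lay above FL 1 to 4. Its fold change was 0.20 (SE 0.18, limma adjusted p = 0.601), and 0.43 (SE 0.14, limma adjusted p = 0.0277) without FL 5 and HET 1, or 0.75 relative to all genes. Stip1, the adaptor between HSP70 and HSP90, averaged 109 ± 13.6 FPKM in HET and 99.5 ± 9.15 in FL, and Cdc37, which brings kinases to HSP90, 138 ± 30.8 in HET and 162 ± 13.7 in FL. Ahsa1, which speeds the HSP90 ATPase, averaged 135 ± 17.5 FPKM in HET and 137 ± 5.73 in FL, and Chordc1, an HSP90 partner, 30.1 ± 2.93 in HET and 32.9 ± 5.34 in FL. These 4 passed in neither fit. Bag3, which links HSP70 to autophagy, averaged 4.58 ± 1.32 FPKM in HET and 5.09 ± 0.552 in FL and passed without FL 5 and HET 1 at -0.33 (SE 0.12, limma adjusted p = 0.0443), or -0.01 relative to all genes. Of the 9 cochaperone genes 2 had a fold change above 0 and 7 below over 10 libraries, with a median of -0.15. Under median-ratio scaling 5 lay above and 4 below, with a median of 0.01.

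Cochaperones and J-proteins outside the set mostly had fold changes below 0, as did 77.3% of all genes. Of 25 further HSP70 and HSP90 cochaperones 23 lay below 0 and 2 above, with a median of -0.12 (0.05, and 16 of 25 above 0, under median-ratio scaling), and none passed over 10 libraries. Of the 25, 12 passed without FL 5 and HET 1, all lower, against 42.2% of all genes. Bag6, another BAG-domain gene, which guards proteins bound for membranes, averaged 9.08 ± 5.82 FPKM in HET and 20.998 ± 7.30 in FL, and Tomm70a, the import receptor that HSP70 and HSP90 dock on, 8.23 ± 3.19 in HET and 21.6 ± 8.50 in FL. Their fold changes were -1.19 and -1.21 (limma adjusted p = 0.472 for both). Without FL 5 and HET 1 they were -1.73 and -1.76 (limma adjusted p = 2.96e-05 and 5.53e-06), or -1.41 and -1.43 relative to all genes. Of 18 further J-protein genes 16 lay below 0, with a median of -0.24 (-0.07 under median-ratio scaling), and 10 passed downward without FL 5 and HET 1, against 42.2% of all genes. Gak, which uncoats clathrin vesicles with HSC70, averaged 15.1 ± 3.52 FPKM in HET and 21.02 ± 1.72 in FL, and Dnajc2, which works at the ribosome, 39.9 ± 5.21 in HET and 50.9 ± 3.52 in FL. Of 3 nascent chain chaperone genes 2 lay above 0 and none passed in either fit, against 45.7% of all genes without FL 5 and HET 1. Btf3 averaged 635 ± 132 FPKM in HET and 571 ± 122 in FL, and Btf3l4 26.5 ± 1.92 in HET and 28.5 ± 2.30 in FL.

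Both heat shock factor genes were detected in every library, and neither passed over 10 libraries. Hsf1, the main stress-activated factor, had 38.7, 28.0, 34.5, 28.6 and 31.6 FPKM in HET libraries 1 to 5, against 36.0, 36.0, 36.5, 28.9 and 31.6 FPKM in FL libraries 1 to 5. The groups overlapped, with a fold change of -0.07 (SE 0.12, limma adjusted p = 0.787). Hsf2, a partner of HSF1 with a role in development, had 7, 2.49, 5.06, 2.24 and 3.08 FPKM in HET libraries, against 5.85, 6.24, 5.45, 4.21 and 2.32 FPKM in FL libraries. HET 1 was the highest library and FL 5 nearly the lowest. Its fold change was -0.26 (SE 0.29, limma adjusted p = 0.656), and -0.64 (SE 0.20, limma adjusted p = 0.0241) without FL 5 and HET 1, or -0.32 relative to all genes. The small heat shock gene Hspb1 had 0.05 to 0.49 FPKM in HET and 0.12 to 0.99 FPKM in FL and was not tested. The immediate early genes respond within minutes to handling and to growth signals. Of 14 tested members 13 lay below 0, against 77.3% of all genes. The median of the 14 was -0.52 (-0.33 under median-ratio scaling). Jund averaged 6.91 ± 6.995 FPKM in HET and 19.99 ± 10.6 in FL, and Nr4a1 45.1 ± 36.0 in HET and 105 ± 54.9 in FL, and none of the 14 passed over 10 libraries. Without FL 5 and HET 1, 1 of the 14 passed as lower, against 42.2% of all genes. It was Jund, at -2.32 (limma adjusted p = 0.00166).

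Ratios within a library do not depend on its scaling, and 4 were compared by exact two-sided permutation tests with p adjusted over the 4. The ratio of Hsp90aa1 to Hsp90ab1 was 0.576, 0.695, 0.690, 0.875 and 0.661 in HET libraries 1 to 5, against 0.624, 0.579, 0.608, 0.619 and 0.800 in FL libraries 1 to 5. HET 2 to 5 all lay above FL 1 to 4. The log2 difference was 0.11 (exact permutation p = 0.413, adjusted p = 0.413) over 10 libraries, and 0.26 (exact permutation p = 0.0286, adjusted p = 0.0571) over 8, where 0.0286 is the smallest p the 70 assignments allow, and it ran from 0.027 to 0.19 with 1 library left out. The summed CCT level over the summed actin and tubulin level was 0.129, 0.153, 0.128, 0.146 and 0.129 in HET libraries, against 0.126, 0.106, 0.1203, 0.115 and 0.141 in FL libraries. All 5 HET libraries lay above FL 1 to 4 and FL 5 lay among them. The log2 difference was 0.17 (exact permutation p = 0.0873, adjusted p = 0.349), and 0.25 over 8 libraries (exact permutation p = 0.0286, adjusted p = 0.0571). It ran from 0.13 to 0.23 with 1 library left out. The ratio passed without FL 5 (exact permutation adjusted p = 0.0317), the 1 library by which the groups overlapped. Leaving it out made the groups separate, so this is no independent support. The ratio of Hspd1 to Hspe1 averaged 1.46 ± 0.217 in HET and 1.26 ± 0.208 in FL, with a log2 difference of 0.21 (exact permutation p = 0.175, adjusted p = 0.349) over 10 libraries and 0.37 (exact permutation p = 0.0571, adjusted p = 0.0762) over 8, and 0.15 to 0.29 with 1 library left out. The ratio of inducible Hspa1a and Hspa1b to Hspa8 was between 5.87e-05 and 0.000443 in HET and between 0.000113 and 0.000459 in FL, with a log2 difference of -0.55 (exact permutation p = 0.381, adjusted p = 0.413) over 10 libraries and -1.18 (exact permutation p = 0.114, adjusted p = 0.114) over 8, and -0.93 to -0.20 with 1 library left out.

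**Figure D5:**
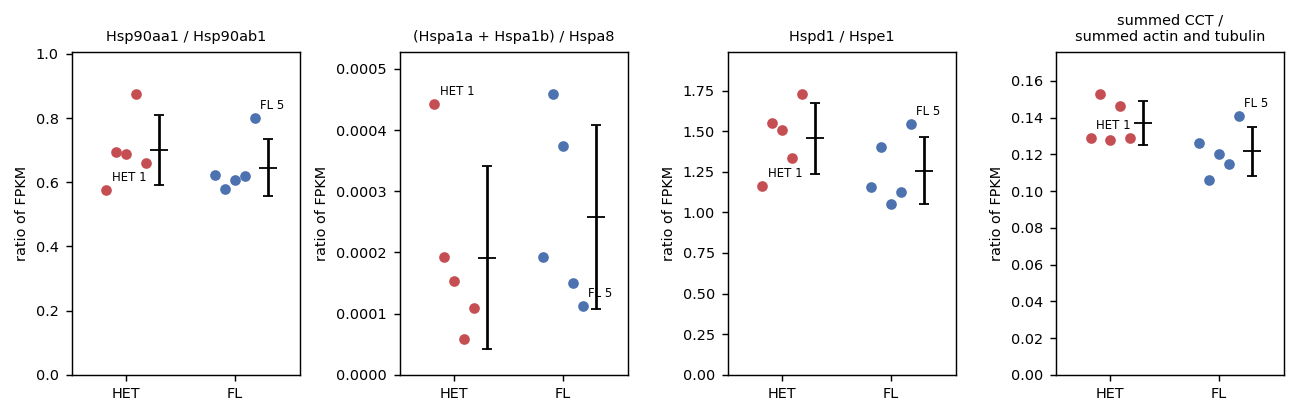
The 4 ratios of FPKM within each library, with mean and SD over 5 libraries, HET left of FL, HET 1 and FL 5 marked by name. The CCT to actin and tubulin ratio lies at 0.128 to 0.153 in HET and at 0.106 to 0.141 in FL, with FL 5 the highest FL library.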

How the data were processed

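RNA was measured by sequencing in 10 libraries, 5 HET and 5 FL, grouped by the genotype in the labels. Per the labels' protocols, total RNA was extracted with a miRNeasy kit, amplified by the Geo-seq method and made into libraries with a transposase kit (TruePrep V2), and no strand marking or molecular identifier is named. The authors deposited FPKM per Ensembl gene. The submitters' processing notes name mm10 as the build, and Cufflinks 2.1.1, Bowtie 0.12.9, DESeq2 and HTSeq as tools without their roles.

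All 52096 identifiers matched GENCODE M21 (GRCm38). The 13041 genes that reached 1 FPKM in 5 or more libraries were compared as log2(FPKM + 1) in R 4.3.3 using limma 3.58.1, with robust shrinkage, an intensity trend and Benjamini-Hochberg adjustment over all of them. Fold changes on this scale understate those of low genes. Nup214 and the 4 ratios were compared by exact permutation over the 252 assignments of 10 libraries (smallest p 0.00794) or the 70 of 8. Read totals are unknown, so no counting intervals are given. To see if the numbers pair the libraries, deviations from each gene's group mean were correlated between HET and FL libraries. Same-numbered libraries gave -0.17 to 0.23, over 0.1 in 3 of 5 pairs. Different-numbered ones gave -0.43 to 0.245, so the numbers were not taken to pair them. No pair of libraries shared more than 0.767% of values. Tables and plots used pandas 2.3.3 and matplotlib 3.10.9 in Python 3.11.15.

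The members, lists, tests and alternatives were chosen with earlier results of these data known. Values in every library are given for Nup214, the 2 members with the smallest p in each direction, the highest member and the one with the smallest p of each role group, and the members of the ratios or their sums, and up to 2 genes per further list are named. Alternatives covered the pseudocount, filter, scaling, shrinkage, gene types, quality weights, replicate block and left-out libraries.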

Additional observations from a re-analysis of the deposited data

Results flagged for a closer look

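Of 92 groups of 5 libraries checked for a library far from the others, 6 were singled out, where chance gives about 1 in 20, and 5 of the 6 concern FL 5 and 1 concerns HET 1. Dnajb6 had 82.9 FPKM in HET 1, against 50.6 to 55.7 FPKM in the other HET libraries. In FL 5, Dnaja2 had 77.2 FPKM (54.9 to 58.9 in the other FL libraries), Stip1 116 FPKM (94.1 to 96.9), Fkbp4 277 FPKM (184 to 198) and Hspa2 3.00 FPKM (3.92 to 4.20). The ratio of Hsp90aa1 to Hsp90ab1 was 0.800 in FL 5, against 0.579 to 0.624 in the other FL libraries.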

How the results depend on the processing

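Over all genes the call count of 0 was 1 under median-ratio scaling, 1 under quantile normalization, 6869 with sample quality weights, which gave HET 1 and FL 5 the lowest weights, 5954 without FL 5 and HET 1, and 0 to 409 with 1 library left out, the 409 being without FL 5. For the chaperone genes it was 20 with the weights (13 higher, 7 lower), 14 without both and 0 to 1 with 1 library left out. Their median fold change was 0.18 under median-ratio scaling, 0.11 under quantile normalization and 0.099 with weights, and -0.033 to 0.057 with 1 library left out. Nup214 passed with weights (-1.96, limma adjusted p = 0.000376), without both (-2.003, limma adjusted p = 0.000157) and without FL 5 (-1.76, limma adjusted p = 0.0183), and ran from -1.84 to -1.42 with 1 library left out. The ratio of CCT to actin and tubulin passed without FL 5 (log2 difference 0.23, exact permutation adjusted p = 0.0317). That choice itself made the groups separate, so this is no independent support. The cause of these changes was not tested. With the replicate number as a block, 0 genes and 0 chaperone genes passed, and the ratios had exact adjusted p of 0.25 to 0.5. With 5 pairs the smallest exact p is 0.0625, which the ratio of Hspd1 to Hspe1 had, so no ratio could pass under the block. Members whose fold change turned sign were, under median-ratio scaling, Hspa2 0.13, Hspa4 0.15, Hspa4l 0.019, Hsph1 0.13, Dnajb1 0.074, Dnajb4 0.16, Dnajb6 0.017, Tcp1 0.17, Cct5 0.19, Hspe1 0.15, Chordc1 0.081, Bag3 0.010, Ahsa1 0.17, Hsf1 0.13. Under quantile normalization they were Hspa2 0.17, Hspa4 0.13, Hspa4l 0.044, Hsph1 0.15, Hsp90ab1 -0.073, Dnajb1 0.042, Dnajb4 0.19, Tcp1 0.021, Cct5 0.0020, Chordc1 0.066, Bag3 0.038, Ahsa1 0.044, Hsf1 0.12. With weights they were Hspa4 0.019, Tcp1 0.098, Cct5 0.14, Hspe1 0.13, Ahsa1 0.038, and without FL 5 and HET 1 Dnaja3 -0.031, Tcp1 0.015, Cct5 0.062, Hspe1 0.031. With 1 library left out, those that turned ran over Ahsa1 -0.070 to 0.049, Cct3 -0.069 to 0.091, Cct5 -0.082 to 0.046, Dnaja3 -0.046 to 0.065, Dnajb4 -0.073 to 0.023, Hspa14 -0.015 to 0.070, Hspa2 -0.093 to 0.050, Hspa4 -0.081 to 0.016, Hspe1 -0.18 to 0.079, Tcp1 -0.10 to 0.024. The pseudocount, filter, shrinkage and protein-coding alternatives turned no member's sign and changed no member's call. Depth limits Hspa1b and Hspb1, whose values are near that of a few fragments.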

Other observations

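The extremes of the 38 tested chaperone genes were unevenly spread over the libraries. HET 2 was the highest library for 19 of them and HET 5 the lowest for 14, while HET 1 was the highest for 8 and the lowest for 8. The 41 genes summed to 0.894%, 1.39%, 1.07%, 1.23% and 0.992% of the FPKM in HET libraries 1 to 5, against 0.978%, 0.997%, 1.002%, 1.09% and 1.33% in FL libraries 1 to 5.

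Chmp5, whose start lies 112 bases from that of Bag1 on the other strand, had 29.2, 17.7, 15.4, 14.7 and 16.6 FPKM in HET libraries 1 to 5, against 21.7, 21.5, 24.2, 20.7 and 19.5 FPKM in FL libraries 1 to 5. It was named after its values were seen. A pair of inverted units, GAANNTTC or TTCNNGAA, occurred in promoter windows of 16 of the 34 matched chaperone genes, 47.1%, against 17.0% of all gene symbols with a window.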
